A study of Mus musculus with 6 samples.

Results

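Diacylglycerol kinase inhibitor II (DKI) and meclizine were grouped together by the study on metabolite profiles, although they are unrelated drugs, and the question here was which H3K4me3-marked genes set the 2 compounds apart. Both were given to STHdhQ111 cells, a line of mouse striatal progenitor cells (strain C57BL/6) with mutant, polyglutamine-expanded huntingtin, for 24 hours in serum-free medium at 10 uM of either compound, so serum starvation and the mutant genotype were common to both samples. Each compound had 1 H3K4me3 ChIP-Seq peak list, made from MNase-digested chromatin, and these are 2 of the 6 samples of the series. The cells are 1 line per genotype, and the labels do not say whether replicate treatments were pooled. No replicate list was analysed, so no difference below has a replicate check and none was tested. Lists from STHdhQ111 cells given cyproheptadine or loxapine, and from STHdh7 wild type cells given vehicle (Q7SST), all likewise starved of serum for 24 hours, are quoted only for comparison. No vehicle list of the mutant line was used.

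The H3K4me3 mark, 3 methyl groups on a lysine near the tip of the histone H3 tail, is written mainly by SET1 and MLL complexes and marks the starts of active or poised genes. Diacylglycerol kinases turn the membrane messenger diacylglycerol into phosphatidic acid and so end signalling through protein kinase C and other diacylglycerol-binding proteins. Meclizine is a histamine H1 receptor antagonist used against motion sickness, and it is also known to inhibit PCYT2, an enzyme of phosphatidylethanolamine synthesis, and to lower mitochondrial respiration.

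The members of the comparison were all peaks of both lists, ranked by the score in the fifth column of the files. The DKI list held 30758 peaks (median score 46, median width 785 bp, 29.5 Mb in all) and the meclizine list 38577 (median score 54, median width 844 bp, 40.1 Mb). The strongest 30758 meclizine peaks were therefore set against the whole DKI list. At the limiting meclizine score of 26, 267 of the 585 tied peaks were kept, the wider first. The equal-sized meclizine list still covered more sequence (35.8 Mb, median width 993 bp) than the DKI list, and its median score was 70. Read depth is unknown, and the scale of the score is not stated, so values are given as percentiles: a promoter's percentile is the rank of its strongest peak within 1 kb of any annotated start, among all peaks of that list. A percentile is a relative position, and neither a uniform gain or loss of the mark nor more cells carrying it against more mark per cell can be told apart from it.

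The strongest regions were found with both compounds. Of the 1000 strongest DKI peaks, 998 overlapped a meclizine peak by at least 1 bp, and all 1000 of the strongest meclizine peaks overlapped a DKI peak. Their order differed, since 60.2% of the top 1000 (95% Wilson interval 57.1 to 63.2) were also in the top 1000 of the other compound. In the lists of 30758, 87.1% of DKI peaks (86.7 to 87.5) overlapped a meclizine peak, 85.1% of meclizine peaks overlapped a DKI peak, and the Jaccard index, the base pairs in both lists over those in either, was 0.681. The Wilson intervals cover counting error only.

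**Figure D1:**
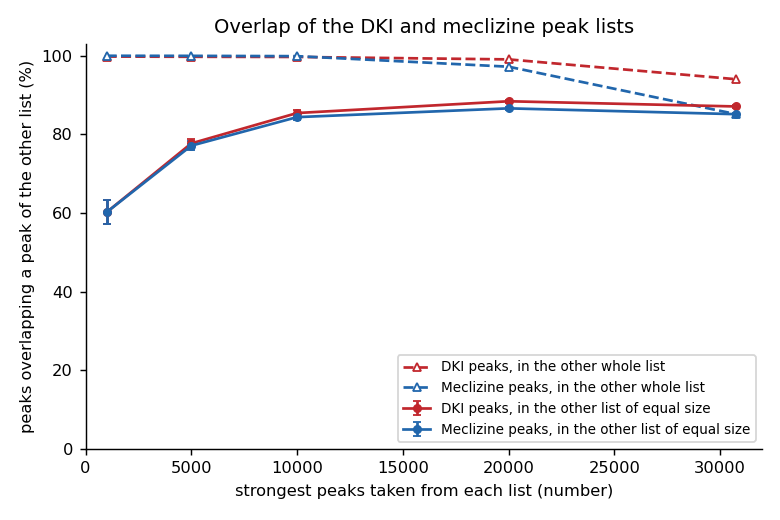
The share of the strongest DKI (red) and meclizine (blue) peaks that overlapped the other compound's list, by the number of strongest peaks taken (x axis); solid lines use the other list cut to the same size, dashed lines the other whole list, and bars are 95% Wilson intervals. The share in the equal-sized list was 60.2% for the top 1000 and 87.1% for all 30758 DKI peaks, whereas nearly every one of the strongest 10000 peaks was in the other whole list.

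Of 21911 coding genes, 12217 were marked in the DKI list, 12456 in the equal-sized meclizine list and 12080 in both. Among these 12080, the median difference (DKI percentile minus meclizine percentile) was -0.723 points with an SD of 10.3 across promoters, and 74.2% of promoters lay within 10 points. At least 20 points higher with DKI were 307 promoters (2.54% of those marked in both), and at least 20 points higher with meclizine were 400 (3.31%). Just inside and outside the limit, the differences were 20.1 and 19.98 points towards DKI and 20.01 and 19.96 points towards meclizine. This split depended on how the percentile was set. The median of all promoters moved to -4.84 with whole lists, so each gene list below is also given an offset, its median difference minus the median of all promoters under the same setting. The range of the offset covers up to 6 alternatives: whole lists, the strongest 20000 peaks, a peak over the start itself, a start within 5 kb, percentiles among promoters, and peaks in the same region counted once. Of 29 lists, 3 had an offset of at least 5 points, and these 3 kept it under every one of these alternatives that could be computed. Of the other 26 lists, 8 passed 5 points under at least 1 alternative and 18 under none. The split with whole lists was 75 against 1162, with only peaks of score 50 or more (the pooled median) 219 against 3036, and with percentiles among the shared coding promoters alone it was 948 against 823. Across promoters, which are not independent replicates and share the 2 libraries, Spearman's rho of the percentiles was 0.879. Of the 10 pairs among 5 lists, DKI and meclizine had the smallest share of promoters past 20 points in either direction (5.85%). The others lay between 6.21% for cyproheptadine and meclizine and 12.97% for Q7SST and loxapine. By other measures the pair was not the closest: the Jaccard index was higher for loxapine and meclizine (0.704) and for cyproheptadine and loxapine (0.688), and the SD of the differences was lower for cyproheptadine and loxapine (10.13 against 10.27 points).

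**Figure D2:**
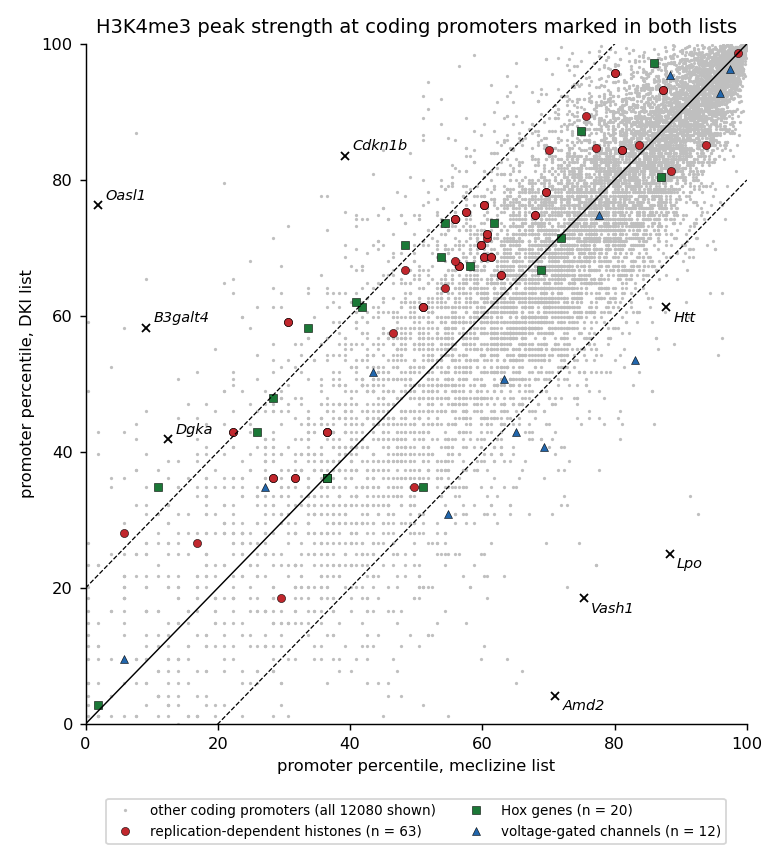
Percentile of each of 12080 coding promoters in the meclizine list (x axis) and the DKI list (y axis), with the replication-dependent histone genes, Hox genes and voltage-gated channels coloured and 8 named genes as crosses; the solid line marks equality and the dashed lines 20 points. Most histone promoters sat above the line of equality, and the 4 channel genes past 20 points sat below it.

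Replication-dependent histone genes were the largest of 3 gene lists whose median lay at least 5 points from that of all promoters. These genes, most of them in the Hist1 clusters of chromosome 13, encode the core and linker histones that package newly replicated DNA, and their transcripts accumulate in S phase. Of 67 histone genes, 63 were marked in both equal-sized lists, and 59 of these lay higher with DKI by any amount, whereas 45.5% of all promoters did. Their median difference was 10.2 points, from a median percentile of 70.4 with DKI and 59.7 with meclizine. Since divergent histone genes share peaks, these 63 genes rested on 36 distinct pairs of peaks, of which 32 were higher with DKI, with a median of 9.76 points. Past 20 points were 5 genes (Hist1h2af, Hist1h3g, Hist1h4b, Hist1h2ak and Hist1h2bn) on 3 pairs of peaks, 7.94% of the 63 against 2.54% of all promoters. Towards meclizine 0 passed, where the share of all promoters was 3.31%, so the 0 is no result about histones. The offset was 11.0, and its range, 6.97 to 16.7, lay towards DKI throughout. With whole lists 66.7% of the histone genes and 25.1% of all promoters were higher with DKI, and the histone median was 2.13 points. A higher percentile was not a higher score. At most of the 36 pairs the score itself was lower with DKI, as for Hist1h1e and Hist1h2be (134 against 159 with meclizine). The shared peak of Hist1h2af and Hist1h3g went the other way (57 against 47).

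Every histone class had a median above 0. Linker H1 genes had a median of 10.5 points (4 genes), H2A genes 8.55 (17 genes), H2B genes 8.43 (17 genes), H3 genes 12.5 (12 genes) and H4 genes 9.79 (13 genes). All H1, H2A and H3 genes marked in both lists were higher with DKI, as were 16 of 17 H2B and 10 of 13 H4 genes. Neighbouring genes of different classes often shared 1 pair of peaks, as did Hist1h1a, Hist1h3a and Hist1h4a. The classes are therefore not separate observations. The 50 genes on chromosome 13 had a median of 10.7 points and the 13 on other chromosomes 6.86. By distinct pairs of peaks, the medians were 10.7 over 28 pairs and 5.05 over 8 pairs.

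Single peaks showed the range. The shared peak of Hist1h2af and Hist1h3g stood at percentile 59.1 with DKI (chr13:23533474-23535214, mm10) and at 30.6 with meclizine (chr13:23533454-23536802). Hist1h4b stood at 28.1 and 5.75. The shared peak of Hist1h2ak and Hist1h2bn stood at 43.0 and 22.3. The following histone genes were named after their values were seen. The divergent pair Hist1h2bh and Hist1h3f had the second strongest histone peak in the DKI list, at 95.7 against 80.1 with meclizine. Hist4h4, the strongest histone promoter in either list, stood at 98.7 and 98.6, a difference of 0.0699 points. Against the group, 4 pairs of peaks were higher with meclizine: Hist1h4j (81.3 with DKI and 88.6 with meclizine), Hist1h4c (85.2 and 93.9), Hist1h4d (18.5 and 29.5) and Hist3h2ba (34.8 and 49.7). The testis-type pair Hist1h2aa and Hist1h2ba was marked only with meclizine, by a single peak at percentile 70.1 (chr13:23933697-23934032), and the nearest DKI peak lay 84288 bp from the start of Hist1h2aa. Counting of reads between near-identical histone genes is not described in the sources used here, so the values of single histone genes are uncertain.

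**Figure D3:**
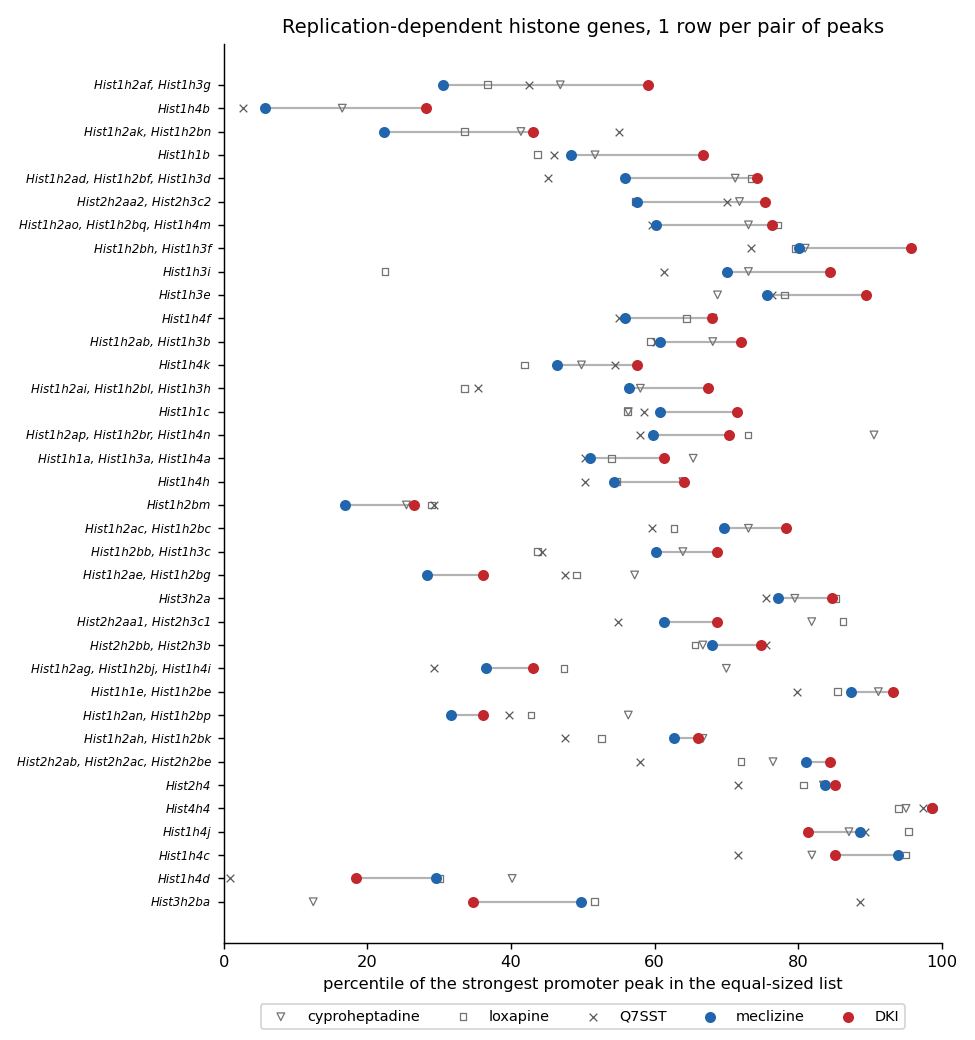
Percentile of the strongest promoter peak (x axis) for 36 pairs of peaks at replication-dependent histone genes, sorted by the DKI minus meclizine difference; red and blue points joined by a line are DKI and meclizine, open triangles cyproheptadine, open squares loxapine and crosses Q7SST. The red point lay to the right in 32 of 36 rows, by up to 28.5 points.

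The other lists, cut to the same size, placed the histone genes as follows. The median histone percentile was 68.1 with cyproheptadine, 59.5 with loxapine and 55.1 in Q7SST. Thus DKI and cyproheptadine, with the shortest lists (30758 and 33721 peaks), stood above meclizine, Q7SST and loxapine, which came from the longer lists (38577, 38392 and 45564 peaks). The part of list length in the histone difference was not tested. Peak width was a further value that moved with the difference. Over all promoters, the median difference went from -6.35 points where the mean width of the peaks was under 500 bp to 4.90 at 3000 to 4000 bp. The histone peaks had a median mean width of 2305 bp, and promoters of 2000 to 2500 bp had a median difference of 0.571, below the histone median of 10.2.

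**Figure D4:**
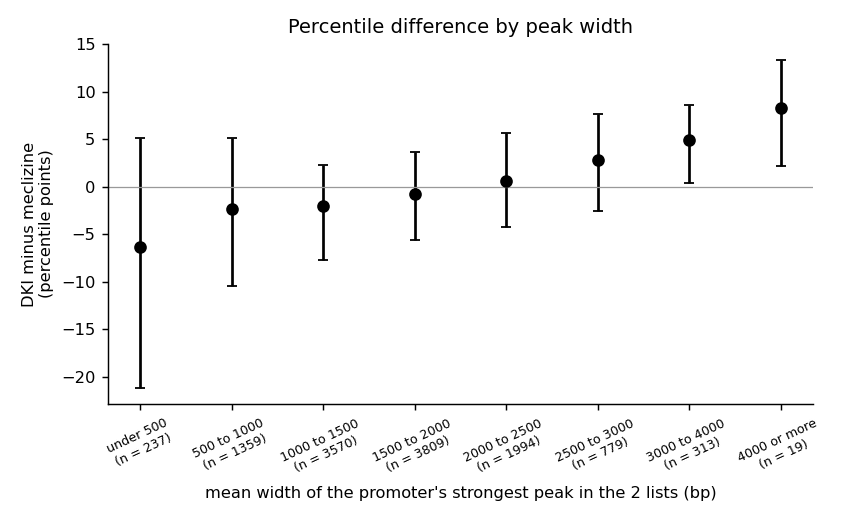
Median difference in promoter percentile (DKI minus meclizine, y axis) for promoters grouped by the mean width of their strongest peaks (x axis, bp); bars are quartiles across promoters, not replicate error. The median went from -6.35 in the narrowest group to 8.35 in the 19 promoters of 4000 bp or more.

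Promoter sequences of histone genes are shown because most of these genes lay higher with DKI. Many of them, though not all, also hold elements that are less frequent in other promoters. The 250 bases before the RefSeq start (GRCm38.p6) are given 5′ to 3′ in the direction of transcription for the 3 genes with the largest differences towards DKI on distinct peaks and for Hist1h4j and Hist1h4d, which lay higher with meclizine. Capitals mark the letters CCAAT or its reverse complement ATTGG, and TATAAA or its reverse complement TTTATA.
Hist1h3g: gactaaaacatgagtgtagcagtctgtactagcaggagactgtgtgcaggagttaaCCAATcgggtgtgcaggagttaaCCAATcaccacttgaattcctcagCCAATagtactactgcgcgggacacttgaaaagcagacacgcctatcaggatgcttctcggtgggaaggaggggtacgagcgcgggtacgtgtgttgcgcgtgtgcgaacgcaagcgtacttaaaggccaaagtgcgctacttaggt
Hist1h4b: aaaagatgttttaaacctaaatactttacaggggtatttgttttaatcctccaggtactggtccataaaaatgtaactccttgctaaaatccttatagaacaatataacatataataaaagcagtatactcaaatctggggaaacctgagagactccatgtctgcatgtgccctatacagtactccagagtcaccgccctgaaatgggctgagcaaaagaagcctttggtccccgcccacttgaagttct
Hist1h2ak: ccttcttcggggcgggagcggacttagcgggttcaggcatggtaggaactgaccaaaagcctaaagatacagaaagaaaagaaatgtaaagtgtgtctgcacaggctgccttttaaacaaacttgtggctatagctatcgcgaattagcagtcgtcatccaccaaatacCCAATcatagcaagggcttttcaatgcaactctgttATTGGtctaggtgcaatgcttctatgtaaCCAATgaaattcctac
Hist1h4j: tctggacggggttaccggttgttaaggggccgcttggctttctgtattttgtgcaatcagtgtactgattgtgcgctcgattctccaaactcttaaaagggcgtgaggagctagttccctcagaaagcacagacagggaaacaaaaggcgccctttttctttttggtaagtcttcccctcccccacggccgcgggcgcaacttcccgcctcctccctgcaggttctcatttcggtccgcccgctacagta
Hist1h4d: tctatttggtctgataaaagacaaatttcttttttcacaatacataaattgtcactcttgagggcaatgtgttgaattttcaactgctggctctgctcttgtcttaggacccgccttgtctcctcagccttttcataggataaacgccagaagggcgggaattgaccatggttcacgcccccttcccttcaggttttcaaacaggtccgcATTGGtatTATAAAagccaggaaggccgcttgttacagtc
These windows are chr13:23535168-23535417 (plus strand) for Hist1h3g, chr13:23756687-23756936 (plus) for Hist1h4b, chr13:21753913-21754162 (minus) for Hist1h2ak, chr13:21734784-21735033 (plus) for Hist1h4j and chr13:23581318-23581567 (plus) for Hist1h4d. The Hist1h4b and Hist1h4d windows lay outside both compared peaks, and the Hist1h3g window lay mostly outside the DKI peak. Hist1h3g and Hist1h2ak held 3 CCAAT matches each, Hist1h4b and Hist1h4j none, and Hist1h4d 1 match of either kind. Over the 9081 shared promoters with a RefSeq window, 37.9% held CCAAT and 5.83% TATAAA in these 250 bases, on either strand. Among 57 histone promoters the shares were 80.7% and 45.6%. The 21 histone genes with both matches had a median difference of 8.43 points and the other 36 a median of 10.7. The part of these letters in the difference was not tested. Among the promoters past 20 points, CCAAT was present in 36.8% of 209 towards DKI and 27.8% of 263 towards meclizine.

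Hox genes also lay higher with DKI. They encode homeodomain factors that set position along the body axis and are normally silent in forebrain. Of 39 Hox genes, 20 were marked in both lists, and 14 of these (70%) were higher with DKI, against 45.5% of all promoters. Their median difference was 12.1 points, from a median percentile of 64.4 with DKI and 49.7 with meclizine. Past 20 points were Hoxa2 (58.3 with DKI and 33.6 with meclizine), Hoxa7 (70.4 and 48.4), Hoxb9 (34.8 and 10.9) and Hoxc6 (62.0 and 40.9), 4 of 20 against 2.54% of all promoters. Towards meclizine 0 passed, a count that a share of 3.31% over all promoters does not set apart. For the list as a whole the offset was 12.8, with a range of 9.91 to 18.7. At Hoxc6 the 2 peaks did not overlap, and at Hoxa7 the sign turned when only the 5′ end of the gene was used (-19.9 points). By cluster, the median was 10.2 points for 8 Hoxa, 16.0 for 6 Hoxb and 15.8 for 4 Hoxc genes, while the 2 marked Hoxd genes shared 1 pair of peaks at -0.385. Hoxb5 was marked only with DKI (percentile 20.2) and Hoxc12 only with meclizine (79.0), where the nearest DKI peak lay 1035 bp from the start. As with the histones, the median Hox percentile was higher with cyproheptadine (59.1) than with loxapine (43.7) or in Q7SST (36.5). The median mean width of the Hox peaks was 1341 bp, and promoters of 1000 to 1500 bp had a median difference of -2.02. The part of width was not tested.

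Neural identity genes were mixed. Of 48 striatal and neural lineage factors, 24 were marked in both lists with a median difference of 4.00 points (offset 4.72, range 0.0595 to 10.3). The lowest offset was that with whole lists and the highest that within 5 kb. Vim, the intermediate filament of progenitors, stood at 63.4 with DKI and 36.5 with meclizine. Ebf1, a factor of direct-pathway striatal neurons, stood at 79.2 and 55.4, and Emx2, a cortical patterning factor, at 72.0 and 49.7. At these 3 genes the meclizine peak was far wider (3358 to 4473 bp against 1250 to 1767 bp with DKI). Dlx5, a homeobox factor of GABAergic neurons, went the other way, at 30.9 and 57.6, with peaks of like width (606 and 557 bp). Marked only with meclizine were Gsx1, Bcl11a, Zfp503, Otx2, En2 and Irx5, and 0 genes of this list only with DKI. Over all promoters these classes held 3.02% of those marked with meclizine and 0.409% of those marked with DKI, so the 0 is no result about these genes. For Gsx1, Bcl11a, Zfp503 and Irx5 a DKI peak lay just beyond the window, 1062 to 1218 bp from a start, while for Otx2 and En2 it lay 5626 and 42183 bp away.

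Mature striatal markers were mostly unmarked, as were markers of unrelated tissues. Of 26 striatal neuron markers, 5 were marked in both lists, all higher with DKI by 0.946 to 17.5 points (median 12.2). Of all promoters 45.5% were higher with DKI. The offset of 12.9, with a range of 8.37 to 13.3, rested on 5 or 6 genes. With whole lists 66.7% of 6 were higher with DKI, against 25.1% of all promoters. The largest differences were at the phosphodiesterase genes Pde1b (56.8 with DKI and 39.3 with meclizine) and Pde10a (53.5 and 36.5), named after their values were seen. The dopamine receptor genes Drd1 and Drd2 were unmarked, and Ppp1r1b and Rgs9 were marked only with meclizine (percentiles 10.9 and 45.7). None of the 19 annotated markers of other tissues was marked in either equal-sized list. Of 26 glial, microglial, endothelial and fibroblast markers, 7 were marked in both, with a median of 1.52 points (offset 2.25, range -8.28 to 2.75). The offset turned towards meclizine under 4 of the 6 alternatives. Among them Gfap, the astrocyte filament, stood at 47.0 with DKI and 15.4 with meclizine, while the receptor genes Kdr (52.6 and 81.5) and Pdgfrb (37.4 and 57.6) lay higher with meclizine. Aldh1l1 was marked only with meclizine at percentile 7.57. The microglial genes Aif1, Cx3cr1 and Ptprc and the endothelial genes Pecam1 and Cdh5 were unmarked.

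Of 40 cell cycle and p53 genes, 39 were marked in both, and 22 of these (56.4%) were higher with DKI, against 45.5% of all promoters. The list had a median of 4.18 points (offset 4.90, range 0.666 to 6.54). The offset passed 5 points under 3 of the 6 alternatives. E2f2, an S-phase transcription factor, stood at 91.4 with DKI and 64.6 with meclizine, although on peaks that did not overlap. For the S-phase cyclins the order was split. Ccne2 stood at 76.8 with DKI and 55.4 with meclizine, and Ccne1 at 53.5 and 74.3. Cdkn1b, encoding the inhibitor p27, had the largest difference of the list (83.6 against 39.3), but from a 209 bp DKI peak and a 2331 bp meclizine peak that did not overlap. With only peaks in the same region, each pair once, 51.5% of 33 genes were higher with DKI against 41.8% of all promoters. CCAAT was present in 67.7% of 31 cell cycle promoters.

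The direction of the diacylglycerol lists turned with the setting. Of 10 diacylglycerol kinase genes, 6 were marked in both lists, 3 higher with each compound, with a median of 1.39 points (offset 2.12, range -11.7 to 3.60). On 5 to 7 genes, the offset lay towards meclizine under 3 of 4 alternatives and was lowest with the strongest 20000 peaks. Dgka, the alpha isoform, stood at 41.9 with DKI and 12.5 with meclizine on peaks in the same region. Its level was 41.4 with cyproheptadine and 40.98 with loxapine, so meclizine was the low list. Dgkd stood at 74.8 and 53.1, but on a DKI peak of 229 bp within a meclizine peak of 1957 bp. The 250 bases before the RefSeq start of Dgka (chr10:128744077-128744326, minus strand), shown for the isoform with the largest difference, held neither CCAAT nor TATAAA.
Dgka: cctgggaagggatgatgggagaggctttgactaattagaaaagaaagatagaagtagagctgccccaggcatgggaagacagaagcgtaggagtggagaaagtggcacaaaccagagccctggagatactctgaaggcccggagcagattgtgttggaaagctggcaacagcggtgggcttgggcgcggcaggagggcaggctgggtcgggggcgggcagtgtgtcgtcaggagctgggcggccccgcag
Among 20 diacylglycerol effectors, 14 were marked in both with a median of -2.24 points (offset -1.51, range -3.51 to 3.25). The offset lay towards DKI under 5 of 6 alternatives. Chn1, a Rac GTPase-activating chimaerin, stood at 9.61 with DKI and 42.5 with meclizine on partly overlapping peaks, and Unc13a, a synaptic vesicle priming factor, at 39.7 and 62.8 on peaks that did not overlap. The difference of Unc13a turned to 6.26 points with starts within 5 kb. Rasgrp1, a Ras exchange factor that binds diacylglycerol, was marked only with meclizine (percentile 18.3), 47040 bp from the nearest DKI peak.

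On the meclizine side, 19 of 20 genes of phosphatidylethanolamine and choline synthesis were marked in both, with a median of -2.03 points (offset -1.31, range -4.33 to -0.109). Etnk2, an ethanolamine kinase, stood at 51.7 with DKI and 83.7 with meclizine and alone passed 20 points. Pcyt2 and Hrh1 were named for their known link to meclizine, after their values were seen. Pcyt2 stood at 88.5 with DKI and 96.5 with meclizine. Hrh1, the H1 receptor, stood at 91.6 with DKI and 76.5 with meclizine, and was the only one of 9 histamine and muscarinic receptor genes to be marked. Of 17 xenobiotic receptors and targets, 10 were marked in both (median -0.747, offset -0.0236, range -3.37 to 1.12). None passed 20 points, a count that shares of 2.54% and 3.31% over all promoters do not set apart. Cyp1a1 was marked only with meclizine (percentile 3.82).

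All 74 respiratory chain and ATP synthase genes were marked in both lists, with a median of -1.98 points (offset -1.25, range -3.39 to -0.301) and 28 higher with DKI, a share of 37.8% against 45.5% of all promoters. Atp5e, the epsilon subunit of ATP synthase, was the one past 20 points (36.1 with DKI and 56.5 with meclizine). All 78 mitochondrial ribosomal protein genes were marked, with a median of -0.979 (offset -0.256, range -1.61 to 1.42), and Mrpl23 (61.3 and 85.3) and Mrps2 (40.8 and 64.6) passed 20 points towards meclizine. Of 33 glycolysis and pyruvate entry genes, 32 were marked in both (median 0.884, offset 1.61, range 0.917 to 4.08). Pgk1, phosphoglycerate kinase, stood at 63.4 with DKI and 38.4 with meclizine, and Aldoc was marked only with meclizine (percentile 5.75). All 40 genes of the autophagy list, which does not include Atg9b, were marked in both (median -0.166, offset 0.558, range 0.310 to 0.785). None passed 20 points, a count that shares of 2.54% and 3.31% over all promoters do not set apart. The extremes were named after their values were seen. Map1lc3a stood at 37.4 with DKI and 57.0 with meclizine, and Tfeb, a regulator of lysosomal genes, at 55.9 and 39.3. Sterol synthesis and transport had a median of 0.156 over 36 genes (offset 0.879, range 0.779 to 1.53), with a split between cholesterol exporters: Abca1 stood at 48.0 with DKI and 74.3 with meclizine, and Abcg1 at 89.1 and 63.2.

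Among the stress and signalling lists, the 32 shared genes of the ER and integrated stress response had a median of -1.04 points (offset -0.315, range -0.847 to 0.757). Sel1l, of ER-associated degradation, stood at 28.1 with DKI and 54.3 with meclizine, and Cebpb was marked only with meclizine (percentile 22.3), with a DKI peak 1241 bp from its start. The 32 antioxidant and glutathione genes had a median of 0.0545 (offset 0.778, range 0.677 to 2.01). That none passed 20 points is not set apart by the shares of all promoters (2.54% and 3.31%). Of 24 immediate early genes (median 0.923, offset 1.65, range -0.507 to 2.46), Egr1 (88.2 with DKI and 67.5 with meclizine), Egr3 (76.3 and 51.1) and Nr4a3 (69.8 and 44.2) lay higher with DKI, and Jund (54.3 and 95.6) and Maff (71.0 and 91.0) with meclizine. The Jund values came from a DKI peak of 2682 bp and an overlapping meclizine peak of 333 bp. The ERK feedback list had a median of 1.61 over 19 genes (offset 2.33, range 1.93 to 4.05), 14 of them (73.7%) higher with DKI against 45.5% of all promoters. With whole lists the shares were 21.1% and 25.1%. Spry2, an inhibitor of receptor tyrosine kinase signalling, stood at 56.8 and 36.5. Interferon response genes had a median of -0.923 over 40 genes (offset -0.200, range -2.60 to 0.229). Oasl1 was their one gene past 20 points, and Mx1 was marked only with meclizine (percentile 5.75). The SRF and YAP cytoskeletal targets had a median of 2.67 over 24 genes (offset 3.39, range 0.111 to 9.46). None passed 20 points, again not set apart by 2.54% and 3.31% over all promoters. Of these targets 62.5% were higher with DKI against 45.5% of all promoters. When the peak had to lie over the start itself, 47.4% of 19 were, near the 43.3% of all promoters. Acta2, smooth muscle actin, was marked with DKI (percentile 5.96) and not with meclizine, and stood at 83.1 in Q7SST.

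Wnt and surface signalling genes went both ways. Of 51 Wnt pathway genes, 34 were marked in both (median -0.493, offset 0.231, range -2.03 to 0.942). The ligand genes Wnt2 (21.8 with DKI and 60.7 with meclizine), Wnt5b (20.2 and 58.2) and Wnt11 (28.1 and 54.3) lay higher with meclizine. The Wnt5b peaks did not overlap, and its difference turned to 12.6 points when only the 5′ end of the gene was used. Wnt7a (47.0 and 18.3), the nuclear effector Lef1 (61.3 and 25.99) and the R-spondin receptor Lgr4 (46.1 and 19.7) lay higher with DKI, each on a DKI peak of 231 to 325 bp within a meclizine peak of over 2000 bp. Wnt3 and Fzd9 were marked only with meclizine and Sfrp4, a secreted Wnt antagonist, only with DKI. Of 69 axon guidance genes, 45 were marked in both (median -0.385, offset 0.338, range -4.36 to 1.74). Plxna1 stood at 48.9 and 27.2, but its difference turned to -30.5 points when starts within 5 kb were used. Sema4d, Plxnc1, Robo3, Ephb2 and Efna5 were marked only with meclizine. For Efna5 a DKI peak lay 1001 bp from a start, just outside the window, and for the other 4 the nearest lay 4610 to 55110 bp away. For extracellular matrix genes the median was 0.608 over 36 genes (offset 1.33, range -5.77 to 2.90). Of these genes 52.8% were higher with DKI against 45.5% of all promoters, and with whole lists 19.4% against 25.1%. Col16a1 (74.8 and 50.4) and Col18a1 (69.2 and 42.5) lay higher with DKI, and Col27a1 (34.8 and 55.9) and Lama5 (16.7 and 46.4) with meclizine, and Fbn2 was marked only with meclizine. The difference of Lama5 turned to 15.1 points with starts within 5 kb.

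Voltage-gated channels lay towards meclizine, with a median of -2.97 points over the 12 of 52 genes marked in both (offset -2.25, range -16.0 to -3.96). It was the lowest median in the equal-sized lists, but not with whole lists, with the strongest 20000 peaks or within 5 kb. On the 8 promoters with peaks in the same region the median was -17.2 and 0 genes were higher with DKI, against 41.8% of all promoters in the same region counted once. Over the start itself the median was -12.6 over 6 genes and 0 were higher, against 43.3% of all promoters. The sodium channel gene Scn1a (53.5 with DKI and 83.0 with meclizine) and the potassium channel gene Kcna4 (43.0 and 65.1) passed 20 points. So did the calcium channel genes Cacna1b (30.9 and 54.9) and Cacna1g (40.8 and 69.3), and all 4 lay on peaks in the same region. Of all promoters 3.31% passed towards meclizine. Towards DKI 0 channel genes passed, where the share of all promoters was 2.54%, so the 0 is no result about channels. Kcnd1, Kcnh2 and Hcn2 were marked only with meclizine, with the nearest DKI peak 18598, 1538 and 8799 bp from a start. They were 3 of the 15 channel genes marked with meclizine, against 3.02% over all promoters marked with it. The channel peaks were narrow, with a median mean width of 872 bp, and promoters of 500 to 1000 bp had a median of -2.37 over all genes, with 10.9% past 20 points towards meclizine. Clustered protocadherins, 8 of 56 marked in both, had a median of -1.33 (offset -0.608, range -7.37 to 1.25). With percentiles among promoters 75% of the 8 were higher with DKI, where 48.4% of all promoters were. In the equal-sized lists the shares were 25% and 45.5%. Pcdhga1 stood at 39.7 and 64.6, and Pcdhb5 was marked only with meclizine.

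Cytosolic ribosomal protein genes had a median of 1.24 over 77 genes (offset 1.96, range 0.719 to 3.39). Rpl36 (67.4 with DKI and 29.5 with meclizine), Rpl10a (85.9 and 55.9) and Rps2 (55.9 and 35.5) passed 20 points, each on a DKI peak of 214 to 773 bp that overlapped a wider meclizine peak, and close copies of ribosomal protein genes make such values uncertain. All 3 differences turned sign: Rpl10a to -22.4 points with a peak over the start itself, and Rpl36 and Rps2 to -0.753 and -0.00813 with starts within 5 kb. Over 311 zinc finger Zfp genes the median was -1.71 (offset -0.987, range -2.64 to 0.492). Past 20 points were 3 towards DKI (0.965%) and 6 towards meclizine (1.93%), below the 2.54% and 3.31% of all promoters. Among them were Zfp692 (63.4 and 22.3), Zfp667 (74.3 and 41.7), Zfp395 (93.4 and 68.8) and Zfp839 (46.1 and 80.8). The differences of Zfp692 and Zfp667 turned to -4.36 and -1.86 points with starts within 5 kb, and that of Zfp395 to -9.72 with a peak over the start itself. H3K4 methyltransferases and demethylases had a median of 1.78 over 25 genes (offset 2.50, range -1.97 to 4.41). None passed 20 points, a count that shares of 2.54% and 3.31% over all promoters do not set apart. Kdm5b, an H3K4 demethylase, was marked only with meclizine (percentile 9.22), with a DKI peak 2812 bp from its start. Htt itself, named after its value was seen, stood at 61.3 with DKI (chr5:34760985-34761845) and 87.8 with meclizine (chr5:34761080-34761893), on peaks in the same region. Its level was 66.7 with cyproheptadine, 68.9 with loxapine and 68.2 in Q7SST, so the meclizine list was the high one.

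**Figure D5:**
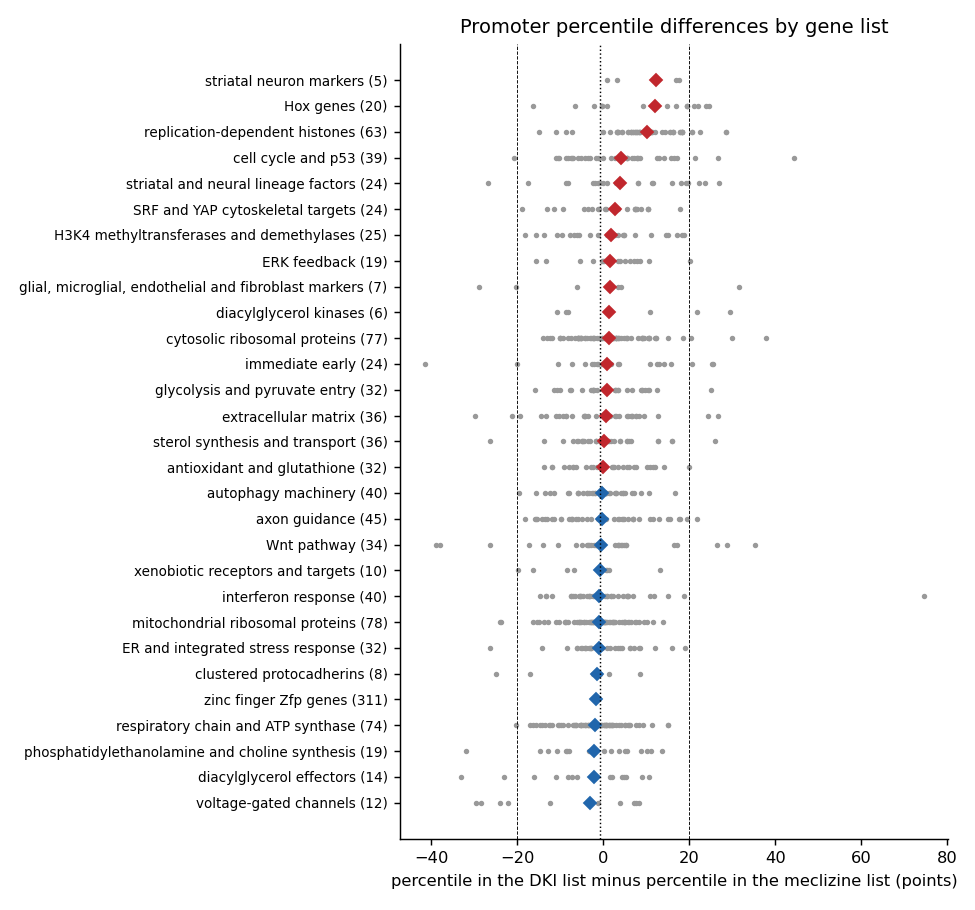
Differences in promoter percentile (DKI minus meclizine, x axis) for the gene lists with at least 5 genes marked in both lists (number in brackets); grey points are genes (not drawn for the Zfp list), diamonds list medians (red above 0, blue below), the dotted line the median of all promoters and the dashed lines 20 points. Striatal neuron markers, Hox genes and replication-dependent histones had medians of 12.2, 12.1 and 10.2 points, and the other lists lay between -2.97 and 4.18.

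The largest single differences towards DKI often came from different peaks. Of the 307 promoters, 145 (47.2%) had strongest peaks that overlapped reciprocally by 50%, whereas 335 of the 400 towards meclizine (83.8%) did. At the 307, the median width was 832 bp with DKI and 1985 bp with meclizine. Moreover, 635 meclizine peaks covered 2 or more DKI peaks, and 39 DKI peaks covered 2 or more meclizine peaks. The part of peak splitting in these differences was not tested. Ank1, an ankyrin of the membrane skeleton, had the largest difference of all (86.9 with DKI and 7.57 with meclizine), from peaks at different starts of the gene. Qk, encoding the RNA-binding protein Quaking, likewise rested on separate peaks (79.6 and 20.99), and its difference turned to -1.58 points with starts within 5 kb. Oasl1, an interferon-induced oligoadenylate synthetase-like gene, stood at 76.3 with DKI (chr5:114922332-114923311) and 1.88 with meclizine (chr5:114922892-114923981), on peaks that overlapped by less than 50%. It stood at 87.8 with cyproheptadine and was unmarked with loxapine and in Q7SST. The protease inhibitor gene Serpinb9f (59.1 and 0.434) and Tigit, an immune checkpoint receptor (52.6 and 3.82), each had a narrow DKI peak (251 and 238 bp) within a meclizine peak of 944 and 1233 bp, and Serpinb9f belongs to a family of close copies, so its value is uncertain.

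Within the same region, the 3 largest differences towards DKI were at Fam71f2 (65.4 and 9.22), at Dynlrb2, a dynein light chain gene (58.3 and 5.75), and at B3galt4, a galactosyltransferase of ganglioside synthesis (58.3 and 9.22). B3galt4 was marked at chr17:33951301-33951819 with DKI and chr17:33951296-33951875 with meclizine, and stood at 34.8 with cyproheptadine and 23.8 with loxapine. The next 5 in the same region, chosen after their values were seen, were Csn3 (73.2 and 30.6), Zfp692, Ost4, a subunit of the oligosaccharyltransferase (80.9 and 43.4), the corepressor gene Irf2bp2 (43.0 and 5.75) and Chadl (50.8 and 14.0). Ost4 stood at 74.2 with cyproheptadine, 60.8 with loxapine and 77.6 in Q7SST, so there too meclizine was the low list.

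Towards meclizine, the largest differences lay mostly on the same narrow peaks. Amd2, a copy of the S-adenosylmethionine decarboxylase gene of polyamine synthesis, stood at 4.19 with DKI and 71.0 with meclizine, and its close copy makes the value uncertain. Lpo, lactoperoxidase, stood at 24.997 and 88.3, and at 81.4 with cyproheptadine, 73.5 with loxapine and 80.6 in Q7SST, so the DKI list was the low one. Btbd17 stood at 30.9 and 92.6, and Btbd2 at 33.5 and 91.4, although within 5 kb of a start the Btbd2 difference turned to 2.75 points. Ppp1r3g, a glycogen-targeting subunit of protein phosphatase 1, stood at 7.80 and 66.1, with cyproheptadine at 10.4, loxapine at 25.1 and Q7SST at 41.6, all below meclizine. Vash1, vasohibin 1, a tubulin carboxypeptidase, stood at 18.5 with DKI (chr12:86678479-86678883) and 75.3 with meclizine (chr12:86678428-86678986), with the other lists between 27.1 and 42.5. Mmp19, a matrix metalloproteinase gene, stood at 9.61 and 63.7. Pls1, of the actin bundler plastin 1, was the exception among these 8, with separate peaks (5.96 and 65.1) and a difference that turned to 17.5 points within 5 kb. The Vash1 window (chr12:86678450-86678699, plus strand), which lay inside the meclizine peak and for the most part inside the DKI peak, is shown as a promoter with a large difference at 1 narrow region.
Vash1: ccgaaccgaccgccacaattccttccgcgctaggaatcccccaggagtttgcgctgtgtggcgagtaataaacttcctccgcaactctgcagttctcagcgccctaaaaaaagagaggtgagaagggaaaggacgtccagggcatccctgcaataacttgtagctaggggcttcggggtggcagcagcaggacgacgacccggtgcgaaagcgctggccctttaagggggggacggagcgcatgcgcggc
It held neither CCAAT nor TATAAA, and its GC content was 60%.

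Promoters marked with 1 compound only were fewer and weaker. There were 50 with DKI and no peak in the whole meclizine list (0.409% of those marked with DKI) and 376 with meclizine and no peak in the DKI list (3.02%). Their median percentiles were 14.9 and 19.7, and 2 and 44 of them lay above their list's median. A DKI-only promoter had to lack all 38577 meclizine peaks, whereas a meclizine-only promoter came from the strongest 30758 and had to lack the 30758 DKI peaks. The strongest DKI-only promoter was that of Sdhaf1, an assembly factor of respiratory complex II (percentile 71.0). Its peak lay 978 bp from the start and a meclizine peak lay 1122 bp away. Sdhaf1 also stood at 71.0 with loxapine and 77.6 in Q7SST. H2-Ke6 (43.0), Sfrp4 (41.9), Hspb9, Rpl36-ps4, Hsd17b2 and Sgca followed, with Dock3, a Rac exchange factor gene (41.9), 8720 bp from a meclizine peak. In Q7SST Dock3 stood at 79.0. Beyond 5 kb from any meclizine peak were 23 DKI-only promoters, among them Naprt, of NAD synthesis (30.9), Cyp26a1, of retinoic acid breakdown (23.4), and Tbx21, a T-cell factor (18.5).

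Strong meclizine-only promoters were likewise close to a DKI peak. Kdm7a, a histone demethylase (98.1), Naif1 (97.0), Atg9b, a paralogue of the autophagy gene Atg9a (95.2), Hcrt (89.5), Mex3c (82.1), Hoxc12 (79.0) and Ccdc71l (78.3) had the nearest DKI peak 1004 to 1487 bp from a start. Beyond 5 kb were 287 of the 376. Leaving out predicted genes with Gm symbols, the strongest of these was Zic5, a zinc finger factor of the neural plate (72.7, chr14:122465184-122465519). The Hist1h2aa and Hist1h2ba pair, Notch3, a Notch receptor (62.8), Spata3 (55.9) and, at 54.3 each, Rab37 and Srcin1 followed. Of the 376, 245 were marked in Q7SST, 122 with loxapine and 84 with cyproheptadine in lists of the same size. Of the 50 DKI-only promoters, these lists marked 15, 8 and 7 in the same order. Over all coding genes they marked 58.1%, 55.1% and 54.8%. Notch3 stood at 67.7 in Q7SST and 16.5 with cyproheptadine and was unmarked with loxapine.

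Peaks absent from the other whole list lay mostly away from starts. There were 1836 with DKI (5.97% of its list; median score 17, width 324 bp) and 4571 with meclizine (14.9%; 35 and 442 bp). Only 8.88% of the DKI-only and 17.0% of the meclizine-only peaks lay within 1 kb of any annotated start, against 48.3% and 50.9% of the peaks found in both. Their median GC content was 39.1% and 45.1%, against 48.1% and 48.6%. The strongest DKI-only peak (percentile 99.5, chr16:10974951-10975303) lay 276 bp from a start of Litaf, with a meclizine peak 893 bp away, and 65.2% of it was repeat sequence. The next lay in no gene, 635990 bp from Epha7 (97.5). The strongest meclizine-only peak (86.5, chr4:152138692-152139459) lay inside a gene, 2367 bp from a start of Espn and 38042 bp from any DKI peak. By chromosome, the X had the lowest median promoter difference (-3.32 points over 359 promoters), while the others lay between -1.43 and 0.291.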

How the data were processed

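H3K4me3 ChIP-Seq peaks of serum-starved STHdhQ111 cells given DKI or meclizine were compared. The peak lists, with a score in the fifth column, were deposited by the authors. The submitters' processing notes name Trimmomatic 0.36, Bowtie2, SAMtools 1.3, MACS2 and mm10. The scale of the score, the caller settings, any input control and any pooling of replicate treatments are not given in the sources used here. Depth and precision are therefore unknown.

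Equal-sized lists were compared with bedtools 2.31.1, python 3.11.15, pandas 2.3.3, scipy 1.17.1 and pysam 0.24.0. Overlap meant at least 1 bp, and the same region meant a reciprocal overlap of 50%. Promoters were coding starts of GENCODE vM21 (GRCm38) with a peak within 1 kb. Percentiles were mean ranks within a list, and 20 points counted as higher. With 1 list per compound no test was run. The calculation was tested on simulated data. The members and gene lists were chosen with earlier results of these data known. Named were the 8 genes per direction with the largest differences and the 8 strongest marked with 1 compound only, leaving out Gm and Rik symbols. List members past 20 points or marked in 1 list could also be named, as most but not all were. Genes described as named after their values were seen, and the strong promoters named beyond 5 kb of the other list, fell outside this rule. A gene that the rule would name is not reported here. The Q111SST vehicle list was not used here.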

Additional observations from a re-analysis of the deposited data

How the results depend on the processing

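No paired analysis was possible because each compound had 1 list. The share of DKI peaks found with meclizine (87.1%) was 94.0% with whole lists, 88.4% and 85.4% with the strongest 20000 and 10000 peaks, 97.1% with a score limit at the pooled median, 86.5% after merging within 1 kb and 72.5% with reciprocal overlap. The Jaccard index (0.681) was 0.645, 0.713, 0.669, 0.617, 0.689 and 0.596 in the same order. Promoters marked only with DKI (50) numbered 7 with 20000 peaks, 1 with 10000, 2 with the pooled score, 88 with a peak over the start itself and 23 with no peak within 5 kb in the other list. Those marked only with meclizine (376) numbered 672 with whole lists, then 97, 21, 104 and 1030 under the first 4 of these. Promoters higher with DKI (307) numbered 75 with whole lists, 664 with 20000 peaks, 1001 with 10000, 161 over the start, 948 with percentiles among promoters and 135 for peaks in the same region counted once, a setting chosen after seeing the data. Those higher with meclizine (400) numbered 1162 with whole lists, 810 with 20000 peaks, 1090 with 10000, 3036 with the pooled score and 823 among promoters. Of 29 gene lists, 3 had a median at least 5 points from that of all promoters, against 7 with whole lists or 20000 peaks and 6 over the start, within 5 kb or among promoters.

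For 90 named genes, 603 of 721 alternative values kept direction and side of 20 points, 99 fell short of it, 4 newly passed it and 15 turned sign. Within 5 kb of a start, the difference turned to 2.75 at Btbd2, 15.1 at Lama5, 17.5 at Pls1, 6.26 at Unc13a, -30.5 at Plxna1, -1.58 at Qk, -0.753 at Rpl36, -0.00813 at Rps2, -1.86 at Zfp667 and -4.36 at Zfp692. With only the 5′ end of the gene it turned to -19.9 at Hoxa7, 12.6 at Wnt5b and -22.4 at Rpl10a, and over the start to -22.4 at Rpl10a and -9.72 at Zfp395. What caused these turns was not tested. The median of all promoters was -4.84 points with whole lists and -10.7 with the pooled score, and between -1.30 and -0.397 otherwise. Without replicate lists or depth, no difference can be set against a spread between samples.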
